A study of Mus musculus with 6 samples.

Results

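The genes described here encode chaperones of histones H3 and H4. They are 10 genes chosen by symbol, namely the subunit genes of chromatin assembly factor-1 (CAF-1) Chaf1a, Chaf1b and Rbbp4, the H3-H4 carriers Asf1a, Asf1b and Nasp, the HIRA complex genes Hira and Ubn1, and the partners Atrx and Daxx. All 10 were found among the 34199 gene symbols counted, and all 10 passed the count filter that left 12460 genes for testing. With the hairpin against Chaf1b switched on, the question was whether the mRNA of any other H3-H4 chaperone rose.

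Bulk RNA-seq was done on iGMPs, which are granulocyte-macrophage progenitors from C57Bl/6 mouse bone marrow immortalized by HOXA9. Every group carried the same fusion of HOXA9 to an estrogen receptor domain, which keeps the cells self-renewing while estradiol is present, and a GFP reporter driven by the Lysozyme promoter, and all were grown with stem cell factor and harvested at 24 h with 2 libraries per group. CAF-1 OFF cells received 500 µM IPTG, which induces the Chaf1b hairpin, with 150 ng/ml estradiol. Control cells also received IPTG and estradiol, and HOXA9 OFF cells were washed and cultured without estradiol. According to the methods of the study, the hairpin lines were clonal and the control vector carried a spacer sequence. Which clones were sequenced, and whether HOXA9 OFF cells carried a hairpin or received IPTG, was not given in the sources used here. The study mentions independent sub-clones for RNA-seq at another time, but no source used here ties the libraries of a group to separate clones or cultures, so p-values measure the spread between these libraries only.

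New DNA has to be packed into nucleosomes as soon as it is copied, and each nucleosome starts with a tetramer of H3 and H4. ASF1 proteins hold newly made H3-H4 dimers and pass them to CAF-1, which deposits them behind the replication fork, and NASP protects the soluble H3-H4 reserve. Outside replication, the HIRA complex and the ATRX-DAXX pair deposit the H3.3 variant, HIRA mainly at active genes and ATRX-DAXX at telomeres and other heterochromatin. In dividing progenitors of the blood, the replication-coupled arm is the one in constant demand.

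Upstream sequences are shown for Chaf1b and Chaf1a, partner subunit genes of which the first is the hairpin target, and for Nasp, the one other gene called in a comparison with control. The bases precede both the RefSeq start and the annotated start of each gene, and run 5′ to 3′ on the strand of the gene. Capitals mark 3 words searched on both strands: TTCCCGC, the core of an E2F site, CCAAT, the word bound by NF-Y, and TTTGAA, the core of the cell cycle homology region. The stretches, on NCBIM37, are chr16:93883896-93884145 on the plus strand for Chaf1b, chr17:56179589-56179826 on the plus strand for Chaf1a and chr4:116300557-116300806 on the minus strand for Nasp.
Chaf1b: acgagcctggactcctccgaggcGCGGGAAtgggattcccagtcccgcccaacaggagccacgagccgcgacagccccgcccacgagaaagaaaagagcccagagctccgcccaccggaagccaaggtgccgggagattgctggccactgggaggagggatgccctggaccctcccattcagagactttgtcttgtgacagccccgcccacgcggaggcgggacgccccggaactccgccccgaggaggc
Chaf1a: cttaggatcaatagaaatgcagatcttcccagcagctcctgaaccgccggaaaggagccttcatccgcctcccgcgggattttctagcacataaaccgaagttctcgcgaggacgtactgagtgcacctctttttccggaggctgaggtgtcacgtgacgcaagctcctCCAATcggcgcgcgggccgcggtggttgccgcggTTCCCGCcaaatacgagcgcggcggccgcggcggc
Nasp: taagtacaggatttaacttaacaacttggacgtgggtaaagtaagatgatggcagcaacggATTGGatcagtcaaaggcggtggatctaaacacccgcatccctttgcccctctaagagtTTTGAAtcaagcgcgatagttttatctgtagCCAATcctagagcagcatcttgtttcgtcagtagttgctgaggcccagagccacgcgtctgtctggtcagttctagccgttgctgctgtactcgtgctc

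All 10 genes matched a RefSeq promoter (GRCm38.p6, 12 promoters, since Daxx has 3), and the words were looked for in the 250 bases before each start. The E2F core word was present upstream of 2 genes, Chaf1b, where it lies 227 bases before the RefSeq start on the opposite strand, and Chaf1a, 47 bases before the RefSeq start. The last 12 of the bases before the RefSeq start of Chaf1a are not printed, because they lie past its annotated start. It was found in 3.82% of 32851 promoters. Longer E2F words (TTTCCCGC, TTTGGCGC, TTTCGCGC and TTTGCCGC, together in 1.86% of promoters) were upstream of 0 of the 10 genes, and the core word was searched after that was seen. CCAAT was present for 8 of the 10 genes and in 33.8% of promoters, and Asf1b held it 4 times. The window of Asf1b, set by the RefSeq start, runs past its annotated start (86479406). Of its words, only the CCAAT 200 bases before the RefSeq start lies before both starts. TTTGAA was present for Asf1b and Nasp and in 16% of promoters. The ETS word CCGGAAGT was present for Daxx alone among these genes and in 2.88% of promoters. It lies across the annotated start of Daxx (34046359). Apart from the E2F core word, which can lie within a longer E2F word, these words do not contain one another. A match is a description of letters and not of binding, and these data hold no binding measurement.

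Chaf1b was the one chaperone gene called in CAF-1 OFF. Chaf1b (chromosome 16, 93884146 to 93906360, plus strand) encodes the mid-sized CAF-1 subunit and is the target of the hairpin. Its level in CPM (counts scaled to a common library size, here with TMM factors) was 17.8 and 12.1 in the CAF-1 OFF libraries, 90.0 and 105 in controls and 64.6 and 61.4 in HOXA9 OFF. The 3 groups did not overlap, with CAF-1 OFF lowest and HOXA9 OFF between it and control. The reads behind these levels numbered 342 and 239 in CAF-1 OFF against 2290 and 1810 in controls. CAF-1 OFF kept 15.3% of the control level (95% interval 11.1 to 21.2), with an edgeR quasi-likelihood false discovery rate (FDR) of 0.0198, and of all 12460 genes it had the lowest p-value. A call here needs a fold change of at least 1.5 and an FDR under 0.05. Without CAF-1 OFF replicate 2 the FDR was 0.0505, and without either control library it was 0.115 (edgeR), so the call was lost in each while the log2 fold change stayed between -3.01 and -2.44. In bulk RNA, fewer expressing cells and less RNA per cell cannot be told apart.

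Of the 10 genes, 1 was called in CAF-1 OFF against control, where 0.0321% of all genes were called, 0.0241% higher and 0.00803% lower. Of the 9 other chaperone genes, 0 were called by edgeR, 0 had an unadjusted p under 0.05 (10.7% of all genes did), and 0 were called by DESeq2 (1.54% of all genes) or by the edgeR exact test (1.95% of all genes). Their log2 fold changes ran from -0.21 for Atrx to 0.08 for Asf1b, with 3 above 0 and 6 below, and their edgeR FDR values ran from 0.627 to 0.98. The upper limits of the 95% intervals, taken gene by gene, ran from 1.06-fold for Rbbp4 to 1.29-fold for Asf1b. Thus a rise of 1.5-fold lay outside the interval of each of the 9 genes. Both limits lay within 1.5-fold for 8 of the 9, the exception being Atrx with a lower limit of 0.659 of control. The CAF-1 OFF libraries both exceeded the controls for 0 of the 10 genes (20.1% of all genes), and both lay below them for 4 (Chaf1b, Rbbp4, Nasp and Hira, against 20% of all genes).

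**Figure D1:**
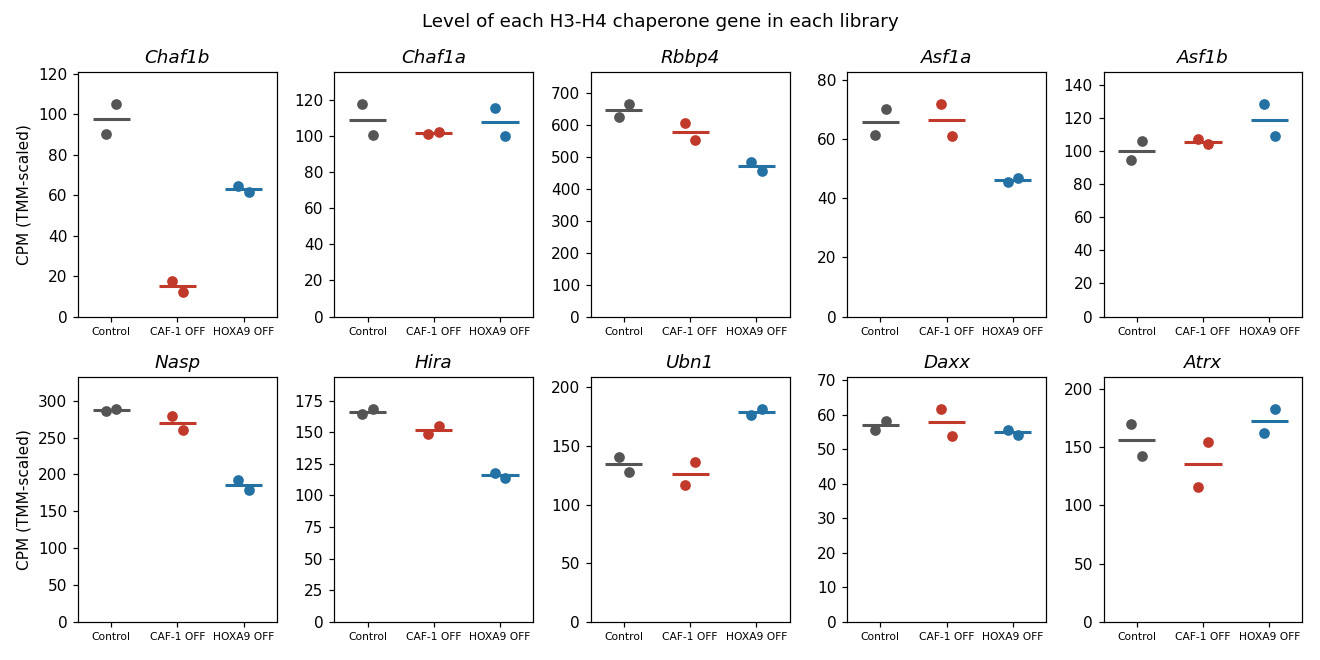
Level of each of the 10 chaperone genes in TMM-scaled CPM (vertical axes start at 0 and differ between genes) in control, CAF-1 OFF and HOXA9 OFF. Points are single libraries and bars are means of 2; Chaf1b fell to 17.8 and 12.1 CPM in CAF-1 OFF, whereas Nasp and Hira were lowest in both HOXA9 OFF libraries.

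Among the other CAF-1 subunits, Chaf1a (chromosome 17, 56179827 to 56206973, plus strand), which encodes the large subunit that binds PCNA, was at 101 and 102 CPM in CAF-1 OFF, 118 and 100.5 in controls and 115 and 100.2 in HOXA9 OFF. All 3 groups overlapped. Against control, CAF-1 OFF stood at 93.2% (interval 0.76 to 1.14-fold, edgeR FDR 0.814). HOXA9 OFF stood at 98.7% (interval 0.805 to 1.21-fold, edgeR FDR 0.925). These are mRNA levels, and protein was not measured in these data. By western blot, the study reports that CHAF1A protein fell both with IPTG and after estradiol removal. Chaf1a shares 144 exonic bases, 5.06% of its exon length, with Ubxn6 on the opposite strand, and since the strand setting of the counting was not given, reads in that stretch are uncertain.

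The third subunit gene, Rbbp4 (chromosome 4, 128984344 to 129012614, minus strand), encodes a WD40 protein that also sits in histone deacetylase and Polycomb complexes. It was at 603 and 551 CPM in CAF-1 OFF, 625 and 665 in controls and 483 and 456 in HOXA9 OFF. Both other groups lay below both controls, HOXA9 OFF further than CAF-1 OFF. The CAF-1 OFF difference did not pass (log2 fold change -0.16 ± 0.0997 SE, edgeR FDR 0.627). The HOXA9 OFF difference passed the FDR but not the fold minimum (log2 fold change -0.46 ± 0.0999, edgeR FDR 0.0157). Sync and the noncoding Gm17525, which overlap Rbbp4 on the opposite strand, held at most 8 reads in any library.

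The balance of the subunit mRNAs was followed as a ratio. Per length (RPKM, the CPM divided by the exon length in kilobases), the ratio of Chaf1b to Chaf1a was 0.0996 and 0.0674 in CAF-1 OFF, 0.434 and 0.595 in controls and 0.318 and 0.348 in HOXA9 OFF. The 3 groups did not overlap. The ratio of Rbbp4 to Chaf1a was 1.93 and 1.75 in CAF-1 OFF, within the control values of 1.72 and 2.15, and 1.36 and 1.48 in HOXA9 OFF, below both controls. The ratios between genes are given as descriptions and were not tested. Their size depends on the length used. In control, Chaf1b was at 19.5 RPKM with all exons and 34.5 with the longest transcript, and Chaf1a at 38.4 with either.

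Of the H3-H4 carriers, neither ASF1 paralog was called in any comparison. Asf1a (chromosome 10, 53316767 to 53329019, plus strand), the ASF1 paralog tied to HIRA, was at 72.0 and 61.1 CPM in CAF-1 OFF, 61.5 and 70.3 in controls and 45.4 and 47.0 in HOXA9 OFF. CAF-1 OFF overlapped control, at 101% of its level (interval 0.818 to 1.25-fold, edgeR FDR 0.98), while both HOXA9 OFF libraries were below all others. Asf1b (chromosome 8, 86479406 to 86494096, plus strand), the paralog tied to proliferation, was at 107 and 104 CPM in CAF-1 OFF, 94.3 and 106 in controls and 128 and 109 in HOXA9 OFF. It had the highest log2 fold change of the 9 other genes in CAF-1 OFF, at 105% of control (interval 0.864 to 1.29-fold, edgeR FDR 0.872), and CAF-1 OFF overlapped control. Both HOXA9 OFF libraries were above the other 4.

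In HOXA9 OFF the ASF1 genes stood on opposite sides of control. The log2 fold change was -0.51 ± 0.129 for Asf1a, below the FDR limit but short of 1.5-fold (edgeR FDR 0.0257), and 0.25 ± 0.12 for Asf1b, which did not pass (edgeR FDR 0.168). The per-length ratio of Asf1a to Asf1b was 0.722 and 0.63 in CAF-1 OFF, 0.699 and 0.712 in controls and 0.379 and 0.462 in HOXA9 OFF. Both HOXA9 OFF values were below the other 4, whose CAF-1 OFF values lay on both sides of control.

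Nasp (chromosome 4, 116273657 to 116300556, minus strand) was at 279 and 260 CPM in CAF-1 OFF, 287 and 289 in controls and 192 and 178 in HOXA9 OFF. The CAF-1 OFF libraries were slightly below both controls and the HOXA9 OFF libraries far below them. CAF-1 OFF kept 93.7% of control (interval 0.798 to 1.1-fold, edgeR FDR 0.78), and HOXA9 OFF kept 64.4% (interval 0.548 to 0.757-fold, edgeR FDR 0.00472), which was called. Without HOXA9 OFF replicate 2 the Nasp log2 fold change was -0.58, just short of the fold minimum, with an edgeR FDR of 0.0413.

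**Figure D2:**
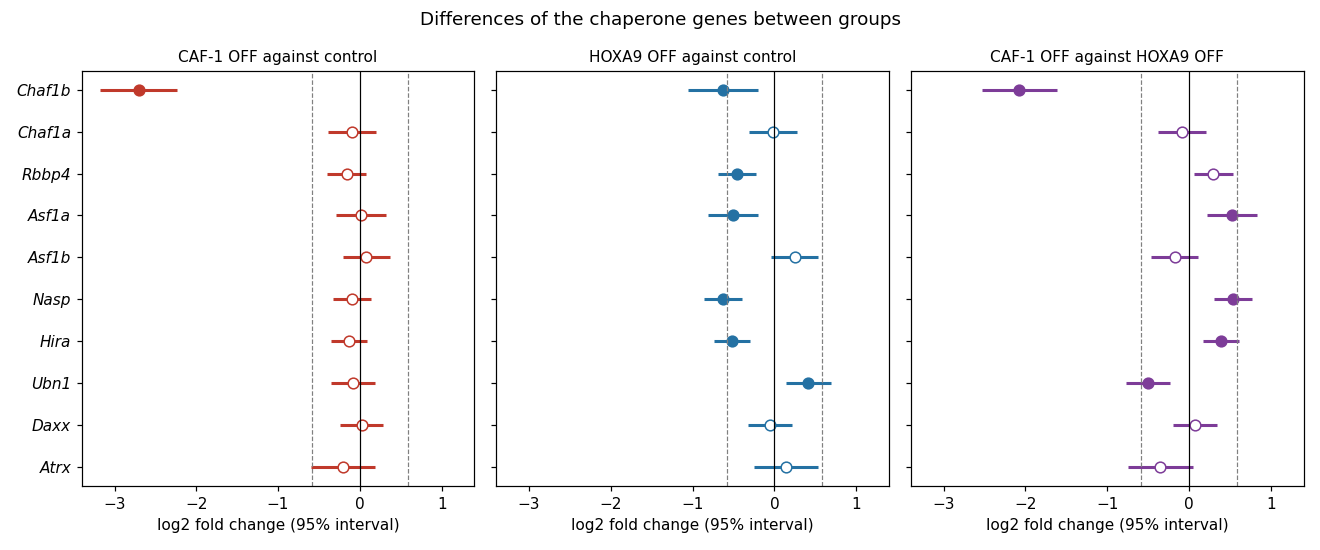
Log2 fold change (horizontal axes, points) with its 95% interval (lines) for each chaperone gene in the 3 comparisons; filled points have an edgeR FDR under 0.05 and dashed lines mark 1.5-fold either way. In CAF-1 OFF against control, Chaf1b alone is filled, and the other 9 lie between -0.21 and 0.08.

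None of Hira, Ubn1, Daxx and Atrx was called in CAF-1 OFF or HOXA9 OFF against control. Hira (chromosome 16, 18877130 to 18970402, plus strand), the WD40 scaffold of its complex, was at 149 and 155 CPM in CAF-1 OFF, 164 and 168 in controls and 118 and 114 in HOXA9 OFF. The 3 groups did not overlap. CAF-1 OFF kept 91.3% of control (interval 0.784 to 1.06-fold, edgeR FDR 0.67), and HOXA9 OFF kept 69.6% (edgeR FDR 0.00762). Gm15797, which lies over 81 exonic bases of Hira on the same strand, held at most 1 read in any library.

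Ubn1 (chromosome 16, 5050161 to 5086378, plus strand) encodes the subunit of the HIRA complex that recognises H3.3. It was at 117 and 136 CPM in CAF-1 OFF, 140 and 128 in controls and 176 and 181 in HOXA9 OFF. CAF-1 OFF overlapped control (94.2% of control, interval 0.781 to 1.14-fold, edgeR FDR 0.837), while both HOXA9 OFF libraries were above all others. In HOXA9 OFF its log2 fold change was 0.41 ± 0.114, opposite in sign to that of Hira (-0.52 ± 0.0926), and its edgeR FDR was 0.034. Accordingly the per-length ratio of Hira to Ubn1 was 1.56 and 1.39 in CAF-1 OFF, 1.44 and 1.61 in controls, and 0.816 and 0.769 in HOXA9 OFF. The ratio stayed near control in CAF-1 OFF, and both HOXA9 OFF values were lower than the other 4.

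**Figure D3:**
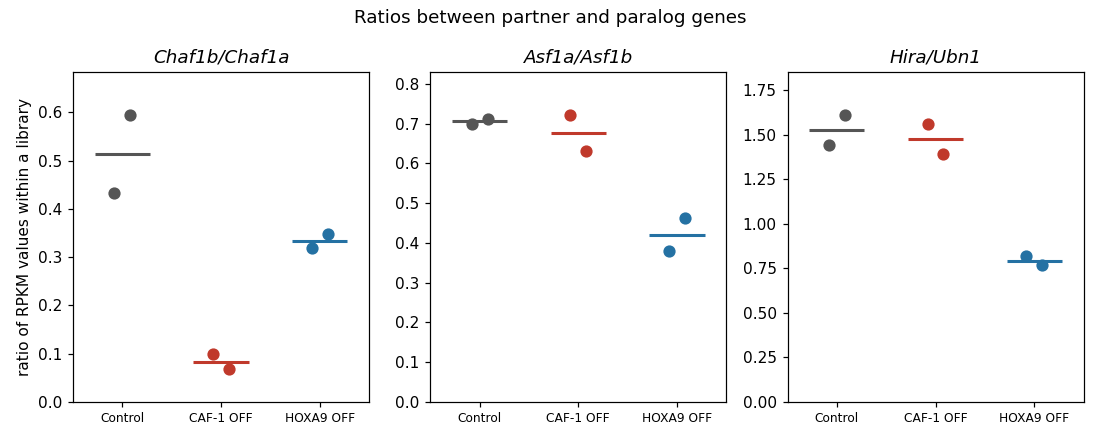
Ratios of RPKM values within a library (vertical axes, starting at 0) for Chaf1b to Chaf1a, Asf1a to Asf1b and Hira to Ubn1; points are single libraries and bars are means of 2. The first ratio is lowest in CAF-1 OFF (0.0996 and 0.0674), and the other two are lowest in HOXA9 OFF.

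Daxx (chromosome 17, 34046359 to 34052534, plus strand), the H3.3 chaperone of the ATRX-DAXX pair, was at 61.7 and 53.9 CPM in CAF-1 OFF, 55.7 and 58.3 in controls and 55.7 and 54.0 in HOXA9 OFF. It had the narrowest span of the 10 genes over the group means, from 54.9 to 57.8 CPM. Against control it stood at 101% in CAF-1 OFF (interval 0.842 to 1.22-fold, edgeR FDR 0.969) and at 96.3% in HOXA9 OFF (interval 0.799 to 1.16-fold, edgeR FDR 0.751). Atrx (chromosome X, 102992954 to 103124736, minus strand), the remodelling ATPase of the pair, was at 116 and 154 CPM in CAF-1 OFF, 170 and 142 in controls and 162 and 183 in HOXA9 OFF. Both groups overlapped control, and in CAF-1 OFF its log2 fold change had the largest SE of the 9 other genes, 0.166. At 86.6% of control in CAF-1 OFF (interval 0.659 to 1.14-fold, edgeR FDR 0.717) and 110% in HOXA9 OFF (interval 0.84 to 1.45-fold, edgeR FDR 0.56), Atrx did not pass in either.

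Summed over the deposition routes, the mRNA of the replication-independent genes (Asf1a, Hira, Ubn1, Atrx and Daxx) was 107 and 106 RPKM in CAF-1 OFF, 110.5 and 112 in controls and 99.3 and 101 in HOXA9 OFF. CAF-1 OFF was thus slightly below both controls in this sum. The sum for the replication-coupled genes (Chaf1a, Chaf1b, Asf1b and Nasp) was 122 and 117 RPKM in CAF-1 OFF, 138 and 140 in controls and 134 and 118 in HOXA9 OFF. This sum holds the hairpin target, and without Chaf1b it was 118.5 and 115 RPKM in CAF-1 OFF against 119.9 and 119 in controls. These sums use the length of all exons, and sums with the longest transcript were not made.

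Gene-assigned reads numbered 16773560 to 25170898 per library, and each count of the 10 genes lay between 239 and 15900. Libraries of a group differed by more than sampling noise (chi-square per degree of freedom 21.4 to 28.9 over genes). The order of levels per length in control ran from Rbbp4 (73.7 ± 3.26 RPKM, SD, n = 2) through Asf1b (42.8 ± 3.5), Chaf1a (38.4 ± 4.34), Nasp (38.2 ± 0.187), Hira (31.5 ± 0.528), Asf1a (30.2 ± 2.86), Ubn1 (20.8 ± 1.33), Chaf1b (19.5 ± 2.14) and Daxx (18.6 ± 0.588) to Atrx (10.3 ± 1.28). Rbbp4 was apart from all others, and Atrx was below all others. Neighbours overlapped between Asf1b, Chaf1a and Nasp, between Hira and Asf1a, and between Ubn1, Chaf1b and Daxx. In CAF-1 OFF Chaf1b became the lowest of the 10, at 2.99 ± 0.801 RPKM. The order depends on the length used. With the longest transcript in place of all exons, Nasp came second in control (91.3 RPKM) and Chaf1b sixth (34.5 RPKM).

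HOXA9 OFF against control asked how the same genes move along normal differentiation. Chaf1b fell there too, to 64.6% of control (log2 fold change -0.63 ± 0.181, edgeR FDR 0.0396). Without control replicate 1 its edgeR FDR was 0.0747, without control replicate 2 0.201, without HOXA9 OFF replicate 1 0.132 and without replicate 2 0.159, so the call was lost in each. Of the 10 genes 2 were called, both lower (Chaf1b and Nasp), where 22% of all genes were called in either direction, 8.97% lower and 13% higher. The count is thus near the background in either direction. With the FDR alone, 6 of 10 passed against 29.8% of all genes, 5 of them lower (Chaf1b, Nasp, Hira, Rbbp4 and Asf1a, against 13.8% of all genes) and 1 higher (Ubn1, against 16%). Groups did not overlap for 2 higher genes (35.1% of all genes) and 6 lower (35.9%). The FDR passes of Rbbp4, Asf1a and Ubn1 were lost when any 1 of the 4 libraries compared was left out (edgeR FDR up to 0.115, 0.164 and 0.194), and that of Hira without control replicate 2 or either HOXA9 OFF library (edgeR FDR up to 0.0634).

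The cells themselves differed between these groups. The 8 progenitor markers were all present, and their summed level ran from 11952 to 17721 CPM over the 6 libraries, although 5 of them (Cd34, Kit, Flt3, Ctsg and Myb) were called lower in HOXA9 OFF, where 8.97% of all genes were. The other 3, the granule protein genes Mpo (0.53), Elane (0.76) and Prtn3 (0.59), had positive log2 fold changes there that did not pass. The 6 maturing neutrophil markers, all called higher in HOXA9 OFF (13% of all genes), summed to 936 and 520 CPM there against 118 and 83.4 in controls and 243 and 223 in CAF-1 OFF. Cebpe made up most of the sum outside HOXA9 OFF, at 212 and 197 CPM in CAF-1 OFF and 112 and 78.1 in controls. In CAF-1 OFF all 6 had log2 fold changes above 0. There edgeR called 0 of the 6 (0.0321% of all genes), DESeq2 3 (1.54%) and the exact test 3 (1.95%). The 5 monocyte and macrophage markers summed to 542 and 549 CPM in HOXA9 OFF, 80.1 and 45.3 in controls and 133 and 189 in CAF-1 OFF, with 4 called higher in HOXA9 OFF (13% of all genes). Without Ly6c2, the other 4 summed to 31.5 and 38.8 CPM in CAF-1 OFF against 51.2 and 28.1 in controls, and to 420 and 474 in HOXA9 OFF. Erythroid and megakaryocyte markers summed to 23.9 and 22.4 CPM in controls, 64.5 and 33.0 under CAF-1 OFF and 72.1 and 78.7 under HOXA9 OFF, and of 3 T cell markers 2 were at 0 in every library. B cell markers summed to at most 7.69 CPM and stromal markers to at most 1.62 CPM. Their part in the chaperone results was not tested.

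A direct contrast of CAF-1 OFF with HOXA9 OFF gave 5 of the 10 genes an edgeR FDR under 0.05, against 30.3% of all genes, and 1 of the 10 was called with the fold minimum, against 22.1%. In 3 of them CAF-1 OFF was the higher (14.3% of all genes) and in 2 the lower (15.9%). This comparison also tests whether the responses of a gene differ between the conditions, because the control they share cancels. Chaf1b was lower in CAF-1 OFF (log2 difference -2.08 ± 0.193, edgeR FDR 0.00101). Nasp (0.54, edgeR FDR 0.00864), Asf1a (0.53, edgeR FDR 0.0237) and Hira (0.39, edgeR FDR 0.0209) were higher in CAF-1 OFF, and Ubn1 was lower (-0.50, edgeR FDR 0.0185). The pass of Nasp was lost without HOXA9 OFF replicate 2, that of Hira without either HOXA9 OFF library, and those of Asf1a and Ubn1 without either HOXA9 OFF library or CAF-1 OFF replicate 1, with edgeR FDR values up to 0.0698, 0.134, 0.125 and 0.093 in that order. Chaf1b passed without any library.

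A list of other H3-H4 chaperones and carriers was examined in the same way. Its 15 genes include Rbbp7, the paralog of Rbbp4, and Mcm2, the replicative helicase subunit that holds parental H3-H4. In CAF-1 OFF, edgeR, DESeq2 and the exact test called 0 of the 15, against 0.0321%, 1.54% and 1.95% of all genes. Of the 15, 0 had an unadjusted p under 0.05, against 10.7% of all genes. Their log2 fold changes ran from -0.16 to 0.16 with a median of 0.01, beside a median of -0.0044 over all genes, and the highest upper limit, that of Tonsl, was 1.5-fold. In HOXA9 OFF 0 were called by any of these tools (edgeR called 22% of all genes, DESeq2 22.7% and the exact test 24%). The median of the 15 was -0.18, and 5 had an unadjusted p under 0.05, as did 41.9% of all genes. Of these 5, 4 passed the edgeR FDR, which 29.8% of all genes did, and all 4 were lower (13.8% of all genes). They were Rbbp7 (-0.37), Mcm2 (-0.37), the importin Ipo4 (-0.58) and the FACT subunit Ssrp1 (-0.32). Each of these passes was lost when any 1 of the 4 libraries compared was left out (edgeR FDR up to 0.154, 0.128, 0.101 and 0.215), and that of Ssrp1 also with no filter (0.0599).

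The next list was drawn up under the name of chaperones of H2A and H2B, which join H3-H4 in the nucleosome. Which histones each product binds was not examined here, so the lists are not a strict split by histone. Of 8 genes, 4 were called lower in HOXA9 OFF (8.97% of all genes) and 0 higher (13%), with a median log2 fold change of -0.50. Nap1l1, a carrier of H2A-H2B, was at 297 and 282 CPM against 514 and 473 in control (log2 fold change -0.77, edgeR FDR 0.00236). Npm1 (-0.83), Set (-0.76) and Ncl (-0.65), which encode abundant nuclear and nucleolar chaperones, were the others, with edgeR FDR values of 0.00215, 0.00933 and 0.00362. A lower Nap1l4 (-0.34) passed the FDR alone (edgeR FDR 0.0366), and was lost with no filter or when any 1 of the 4 libraries compared was left out (up to 0.19). The call of Set was lost without control replicate 2 or HOXA9 OFF replicate 2 (edgeR FDR up to 0.059). In CAF-1 OFF, edgeR, DESeq2 and the exact test called 0 of the 8, against 0.0321%, 1.54% and 1.95% of all genes. There 0 had an unadjusted p under 0.05 (10.7% of all genes), and the median was -0.04.

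Partners of CAF-1 and cell cycle genes were read beside the chaperones, since Chaf1a, Chaf1b and Asf1b are themselves cell cycle genes. Of 6 partner genes (such as Pcna, the sliding clamp), 0 were called in either comparison with control by any of the 3 tools. Over all genes, edgeR, DESeq2 and the exact test called 0.0321%, 1.54% and 1.95% in CAF-1 OFF and 22%, 22.7% and 24% in HOXA9 OFF. An unadjusted p under 0.05 was found for 0 and 3 of the 6 respectively (10.7% and 41.9% of all genes). Mbd1, a methyl-CpG binding protein gene, passed the FDR alone in HOXA9 OFF (0.42, edgeR FDR 0.0318), which was lost with library size alone and when any 1 of the 4 libraries compared was left out (up to 0.195). Of 18 S phase genes, 0 were called in CAF-1 OFF by any of the 3 tools and 3 had an unadjusted p under 0.05 (10.7% of all genes). The one furthest above control was Rrm2, a ribonucleotide reductase subunit, at a log2 fold change of 0.55 (edgeR FDR 0.153). It passed the FDR, though not the fold minimum, by DESeq2, by the edgeR exact test and with no filter (FDR 0.000151 to 0.0114). The one furthest below was Mcm6, a helicase subunit, at -0.47 (edgeR FDR 0.63), whose controls lay far apart at 1148 and 698 CPM. In HOXA9 OFF 2 of the 18 were called lower, near the 8.97% of all genes: Tyms (-0.61, edgeR FDR 0.00675) and Gins2 (-0.72, edgeR FDR 0.0101), both lost without control replicate 2 or HOXA9 OFF replicate 2 (edgeR FDR up to 0.0581 and 0.0699). With the FDR alone 4 of the 18 were lower (13.8% of all genes), since Mcm7 (-0.48, edgeR FDR 0.0085) and Cdc6 (-0.32, edgeR FDR 0.0464) passed too, both lost when any 1 of the 4 libraries compared was left out (up to 0.0628 and 0.233) and Cdc6 also with no filter. There 16 of the 18 were below 0, with a median of -0.15. Of 10 mitotic genes, edgeR called 0 in either comparison with control, with 0 and 1 at an unadjusted p under 0.05 (10.7% and 41.9% of all genes). DESeq2 and the exact test each called 0 of them for CAF-1 OFF and 1 for HOXA9 OFF, where they called 22.7% and 24% of all genes. The summed S phase level was 5111 and 5195 CPM in CAF-1 OFF, 5488 and 4962 in controls and 4772 and 4205 in HOXA9 OFF, so that HOXA9 OFF alone lay below both controls. Its part in the lower Chaf1b and Nasp of HOXA9 OFF was not tested.

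**Figure D4:**
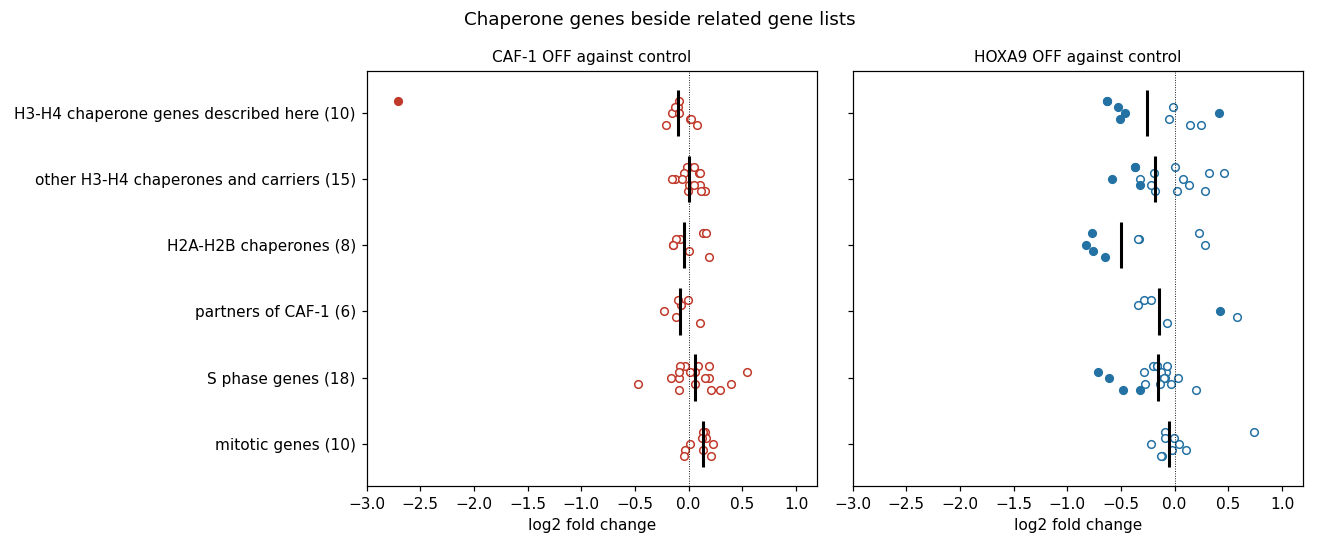
Log2 fold change (horizontal axes) of each tested gene in the 10 chaperone genes and 5 related lists (rows, with the number of genes), for each condition against control. Points are genes, filled where the edgeR FDR is under 0.05, and black bars are medians. The list named H2A-H2B chaperones has a median of -0.04 on the left and -0.50 on the right.

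The genes of H3.3, the cargo of the replication-independent route, were read beside its chaperones. H3f3b, which encodes H3.3, was at 1117 and 1229 CPM in CAF-1 OFF, 514 and 508 in controls and 455 and 428 in HOXA9 OFF. Both CAF-1 OFF libraries were above all others, and the rise of 2.3-fold (interval 1.95 to 2.7) was called (edgeR FDR 0.0221), the only call among the 60 listed genes in that comparison. The call was lost without CAF-1 OFF replicate 2 or either control library (edgeR FDR up to 0.217). H3f3a, which encodes the same protein, was near 14 CPM and did not pass (log2 fold change 0.06, edgeR FDR 0.935). Reads that align to more than one place are left out of such counts, and H3.3 genes have many near-identical copies, so both levels are uncertain.

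By a fixed measure, the root mean square difference of centred log2 CPM over the 3 group means among 9614 genes, the 5 genes nearest to Chaf1b were Pik3r3, B3galtl, Pi16, AC027184.1 and Erbb3, at differences from 0.521 to 0.605. By that choice they too were lowest in CAF-1 OFF. Their log2 differences from control there, furthest at -1.44 for Pik3r3, were smaller in size than that of Chaf1b. In HOXA9 OFF, where Chaf1b was below control, Pik3r3 (0.24), Pi16 (0.125) and Erbb3 (0.0496) were above it. B3galtl (-0.16) and AC027184.1 (-0.49) were below it there. Chaf1a, being nearly flat, had neighbours within 0.00362 (Spcs2, Bcl2l13, Laptm4a, Brcc3 and Ubac2). With only 3 group means these likenesses are descriptions without a test.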

How the data were processed

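Libraries were made from total RNA with a directional NEB kit. The authors aligned reads to mouse mm9 (NCBIM37) with STAR and deposited raw read counts per gene symbol from HTSeq, with no normalization, and the strand setting and annotation of that counting were not given. Groups and replicate numbers came from the sample titles. Each of the 6 files held 34199 symbols and 5 tally lines, which were kept out of library sizes. Between 5.95 and 8.26 reads fell outside genes per 100 assigned.

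Counts were tested in R 4.3.3 with edgeR 4.0.16 (TMM, filterByExpr, quasi-likelihood fit of 1 mean per group to all 6 libraries, Benjamini-Hochberg FDR over 12460 genes). SE and 95% intervals came from the quasi-likelihood F statistic. The script was tested on simulated data. Alternatives were DESeq2 1.42.0 (size factors and Wald test), library size alone, the exact test, other filters and cutoffs, the 4 libraries compared, a replicate block, and fits without each library, where the lone library of a group is assumed to vary like the other groups.

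The 10 genes, the related lists and the markers were chosen with earlier results of these data known. Values are printed for the 10 genes, for listed genes called against control and for the 3 listed genes with the largest change in CAF-1 OFF. They are also printed for listed genes past the FDR alone in a comparison with control. H3f3a, Tonsl, Ly6c2, Cebpe, Mki67 and the named progenitor markers were chosen after their values were seen. Listed genes are not given for CAF-1 OFF against HOXA9 OFF. Coordinates and exon lengths are from the GENCODE annotation of NCBIM37, 1-based, and promoters from RefSeq GRCm38.p6, each placed on NCBIM37 by its 1 exact match. Hairpin sequences are not shown here.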

Additional observations from a re-analysis of the deposited data

Results flagged for a closer look

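Reads that fell in no annotated gene, which the gene comparisons leave out, numbered 7.84 and 8.26 per 100 gene-assigned reads in the HOXA9 OFF libraries, above the 6.87 and 7.15 of the controls, while CAF-1 OFF had 5.95 and 7.30 (no test).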

How the results depend on the processing

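The number of the 10 genes called was unchanged, or within 1.5 times, with DESeq2 size factors, the DESeq2 Wald test, the edgeR exact test, no filter, a mean CPM of at least 5 and the 4 libraries compared. With library size alone it rose to 4 in HOXA9 OFF against control (Asf1a and Hira added) and to 3 in CAF-1 OFF against HOXA9 OFF (Asf1a and Nasp added). At 2-fold and an FDR under 0.01 it was 0 in both comparisons with control. With no fold minimum it was 6 in HOXA9 OFF against control and 5 in CAF-1 OFF against HOXA9 OFF. Over all genes, edgeR called 4 in CAF-1 OFF against control, against 192 by DESeq2, 243 by the exact test, 378 of 19883 with no filter, 9 with the 4 libraries compared, 2 with the replicate block and 71 with the block crossed.

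Replicate numbers did not pair the cultures by any source used here, and the deviations of same-numbered libraries correlated at -0.178, 0.456 and 0.0329 across genes for the 3 pairs of groups. With the replicate block the call count was 0 for CAF-1 OFF against control (Chaf1b log2 fold change -2.72, edgeR FDR 0.0562) and 1 (Nasp) for HOXA9 OFF against control (Chaf1b -0.64, edgeR FDR 0.0566), where Ubn1 passed the FDR neither with the block (0.055) nor with library size alone (0.0669). H3f3b too lost its call in CAF-1 OFF under the block (edgeR FDR 0.0623), as did Mbd1 and Cdc6 their FDR passes in HOXA9 OFF against control. A block with the CAF-1 OFF numbers crossed, added after seeing the data, changed none of the 3 counts of the 10 genes.

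Without 1 library at a time, the count ran from 0 to 1 in CAF-1 OFF against control, from 0 to 2 in HOXA9 OFF against control and from 1 to 4 in CAF-1 OFF against HOXA9 OFF. Fewer libraries were fitted there, which by construction leaves less to estimate the spread. Some log2 fold changes crossed 0, none of them called in the comparison where it did so. In CAF-1 OFF against control they ran from -0.203 to 0.0223 for Chaf1a, -0.11 to 0.14 for Asf1a, -0.0023 to 0.17 for Asf1b, -0.184 to 0.0162 for Ubn1 and -0.0835 to 0.13 for Daxx. Chaf1a ran from -0.13 to 0.0943 in HOXA9 OFF against control. In CAF-1 OFF against HOXA9 OFF, Chaf1a ran from -0.182 to 0.0339 and Daxx from -0.0243 to 0.189. Over the settings that left out no library, 264 of the gene-wise values kept direction and side of the threshold, 4 gained a call and 2 lost one.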
